A study of Sus scrofa with 95 samples.

Results

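The livers of 8 control pigs are described here, each set against the heart, the ileum, the kidney and the lung of the same animal. The libraries were chosen by their labels alone: control animals without drug, 8 libraries of liver, 8 of heart, 8 of ileum, 8 of kidney and 8 of lung, 40 of the 95 libraries of the series. The series used infant swine of 5 to 10 kg and compared anesthesia controls with animals put on cardiopulmonary bypass with 75 min of deep hypothermic circulatory arrest (7 animals without drug, 4 given 75 mg of linrodostat). The bypass and linrodostat animals were not analysed here. The control group holds the animals numbered 1, 4, 7, 10, 13, 14, 15 and 26, of which 4 are labelled female and 4 male, and tissue came from the liver, the left heart ventricle, the terminal ileum, the kidney cortex and the right lower lung lobe. No breed, genotype or exact age is given, and the controls were anesthetised, so they stand for the liver of an anesthetised young pig. Per the labels, kidney and ileum were taken just before euthanasia with pentobarbital and liver, heart and lung just after it, so for liver against kidney and ileum the organ and the time of harvest cannot be told apart. All 8 heart libraries carry batch label 2 and the 32 others batch label 1, so for liver against heart the organ and the batch cannot be told apart. The total numbers of high and low genes are also given without the hearts. Counts within gene lists and calls of single genes are given with the hearts only.

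The liver is built mostly of hepatocytes, which make most proteins of blood plasma, assemble lipoproteins, turn ammonia into urea, release glucose between meals and make bile acids from cholesterol. Blood from the gut reaches these cells through sinusoids lined by a leaky endothelium, with resident macrophages (Kupffer cells) in their lumen and vitamin A storing stellate cells beneath. Organs share many of these enzymes in part: kidney cortex also makes glucose and breaks down amino acids, and the small intestine also assembles lipoproteins and takes bile acids back up.

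Poly(A) RNA was sequenced, and a level below is a count scaled to a common library size (CPM) with TMM, which corrects for the few genes that fill a library. CPM is not divided by transcript length, so levels are compared for 1 gene between organs and never between genes. Liver libraries held 33436800 to 49739383 counts, heart libraries 21321288 to 27219448, ileum libraries 28450535 to 51443527, kidney libraries 34173468 to 42652947 and lung libraries 32566234 to 53627711. The lung library of animal 1 stood apart, with 27% of its counts in 10 genes, against 4.6% to 6.28% in the other lungs. The labelled organ was checked against 3 marker genes given for liver, and all 3 were highest in the libraries labelled liver. APOC3, which slows the breakdown of triglyceride-rich lipoproteins, lay between 6680.4 and 11656 CPM (median 8910) in liver and between 13.9 and 123 CPM (median 26.8) in kidney, the organ with its highest library elsewhere. APOA1, the main protein of high-density lipoprotein, lay between 12429 and 24382 CPM (median 16481) in liver and between 263 and 1346 CPM (median 469.9) in ileum, the next organ. ABCB11, the pump that moves bile salts into bile, lay between 163 and 359.7 CPM (median 284) in liver, with no library of another organ above 0.56 CPM. For each of the 3 genes every liver lay above every library of the other organs. All 3 were called high by the limits given next, with medians over the 3 of 8.22 to 13.24 on the log2 scale across the 4 contrasts.

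**Figure D1:**
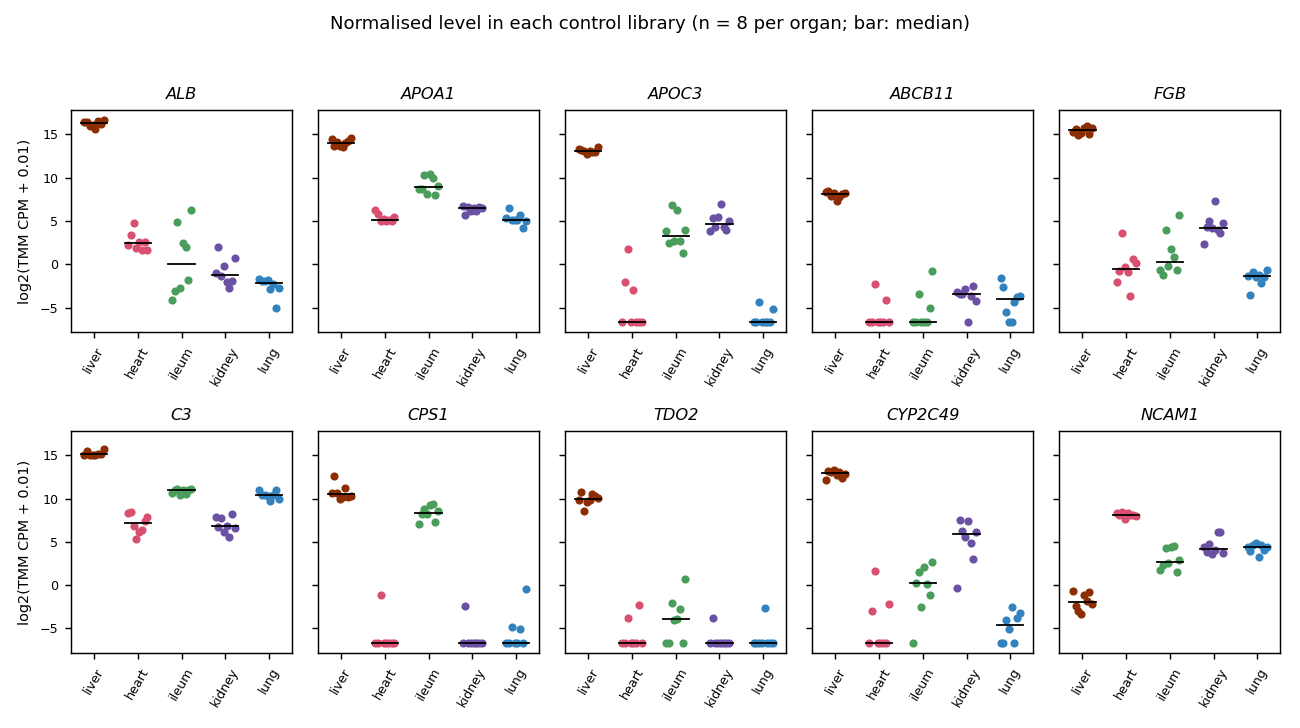
Level of 10 genes in each of the 40 control libraries, as log2 of TMM-scaled CPM plus 0.01, with 8 points per organ (liver, heart, ileum, kidney, lung from left to right) and a bar at the median. In 9 panels all 8 livers lie highest, and in the last, NCAM1, all 8 livers lie lowest.

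Each tested gene was compared between liver and each other organ in 1 model over all 40 libraries, with the animal as a term (edgeR's quasi-likelihood test, p-values adjusted by Benjamini-Hochberg over 18305 genes, threshold 0.05). In liver against heart, 7196 genes (39.3%) were higher in liver and 5955 (32.5%) lower. In liver against ileum, 6188 (33.8%) were higher and 6632 (36.2%) lower. In liver against kidney, 6586 (36.0%) were higher and 6302 (34.4%) lower, and in liver against lung 6429 (35.1%) were higher and 7121 (38.9%) lower. With so many genes past the test in each contrast, passing 1 contrast says little about a gene. A gene is therefore called high in liver below where it passed all 4 contrasts with at least 4-fold more in liver, and low where it passed all 4 with at least 4-fold less. The size given for it is its smallest log2 fold change, liver minus the nearest organ, ± its standard error. Scaling moved the split between higher and lower genes. Of the genes that passed, 48.3% were higher in liver against ileum, 51.1% against kidney and 47.4% against lung, while upper-quartile scaling gave 37.4, 38.9 and 36%, and library sizes alone 13, 10.6 and 13%. The median log2 fold change over all tested genes ran from -0.12 (lung) to 0.12 (heart) with TMM, from -0.43 to -0.1 with upper-quartile scaling, and from -1.44 to -0.2 with library sizes alone.

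By that rule 624 genes were high in liver, 3.41% of those tested, and 392 were low, 2.14%. These 624 genes took between 46.9 and 54.3% of all counts in a liver library (median 50.1%). The same genes took at most 0.729% in a heart, 2.49% in an ileum, 2.57% in a kidney and 2.81% in a lung library, and the organs did not overlap, which the rule itself favours. Of the 624, 181 were at least 64-fold and 68 at least 1024-fold above the nearest organ on the fitted scale, and 457 carry a symbol in the files. A liver library was also filled by few genes: 73 to 140 genes made up 50% of its counts (median 108), against 42 to 159 for a heart library, 636 to 923 for ileum, 665 to 963 for kidney and 366 to 1066 for lung. Liver and heart libraries overlapped in this count, and the liver count lay below all ileum, kidney and lung libraries. Without the 8 heart libraries, 687 genes were high, 611 of them among the 624, and 797 were low, 379 of them among the 392.

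The largest share of liver counts was that of ALB, serum albumin, at 4.46 ± 0.777% (SD, n = 8). FGB, the beta chain of fibrinogen, took 2.55 ± 0.61%. C3, the central complement protein, took 2.12 ± 0.327%. These 3 secreted proteins differ in size, so their shares of counts are no shares of molecules. FGG, the gamma chain of fibrinogen, took 1.57 ± 0.321%, and APOE, a ligand of lipoprotein receptors, 1.27 ± 0.107%. The mitochondrial genes COX1 (1.12 ± 0.167%) and COX3 (0.718 ± 0.126%), of the respiratory chain, were also among the 15 genes with the largest shares. Of the 15 genes with the largest shares, 13 were called high in liver and 4 have no symbol in the files and are not named here.

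Of the genes for carriers and other secreted proteins of plasma, 22 of 22 tested members were called high, against 3.41% of all genes. Another 4 genes asked for on this list were not found in the data by symbol. All lists were chosen with earlier results of these data known, which limits such comparisons with all genes. For each list below, the median log2 fold change of its tested members was taken in each of the 4 contrasts, and the lowest and highest of these 4 medians are given as list medians. For plasma carriers the list medians were 10.13 to 15.73, beside -0.12 to 0.12 for all tested genes. ALB, at 8:69643427-69663152 of Sscrofa11.1 in the RefSeq annotation, lay between 52003 and 101704 CPM (median 80746) in liver, between 3.05 and 26.6 CPM (median 5.33) in heart and between 0.0456 and 74.3 CPM (median 2.11) in ileum. Its difference was smallest from heart, 13.63 ± 1.3 on the log2 scale (adjusted p = 4.28e-11). APOH, a phospholipid-binding glycoprotein, lay between 6665 and 11388 CPM (median 7887) in liver and at most 8.08 CPM in any other library. Its smallest difference, 14.16 ± 1.27, was the largest such size of all genes with a symbol and at least 10 CPM in liver. AHSG (fetuin A, which keeps calcium phosphate in solution) lay between 15241 and 40438 CPM (median 18730.2) in liver, and its highest value elsewhere was 22.8 CPM in 1 ileum. TF, the iron carrier transferrin, lay between 16394 and 30710.4 CPM (median 20483) in liver and between 45 and 131 CPM (median 74) in lung. SERPINA1, the inhibitor of neutrophil elastase, lay between 3018 and 6608 CPM (median 4884) in liver and at most 4.75 CPM in ileum, its highest library elsewhere. In each of these 5 genes the 8 livers lay above all 32 other libraries. Here and below, the rule for high genes favours such separation, and its share over all tested genes was not counted. PON1, an esterase of high-density lipoprotein, had the smallest size on the list, 3.19 ± 0.462 against kidney, with between 218 and 538 CPM (median 388) in liver and between 11.3 and 83.3 CPM (median 49.2) in kidney. It too was higher in every liver than in any other library.

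Of 26 tested genes of coagulation and fibrinolysis, 19 were called high and 0 low (list medians 6.28 to 13.14). FGB lay between 30611 and 62946 CPM (median 46397) in liver and between 5.06 and 162 CPM (median 18.9) in kidney. F2, prothrombin, lay between 3752 and 5938 CPM (median 4346) in liver and between 14 and 61 CPM (median 27.1) in kidney, a log2 difference of 7.32 ± 0.596 (adjusted p = 2.06e-12). PLG, the precursor of plasmin, lay between 7280.1 and 11285 CPM (median 8561) in liver and between 1.76 and 24.9 CPM (median 3.72) in kidney. The livers did not overlap with any other library for these 3 genes. KNG1, the precursor of bradykinin, passed against kidney but not by 4-fold, with between 1638 and 2183 CPM (median 1865) in liver and between 272 and 947 CPM (median 639) in kidney (1.49 ± 0.363, adjusted p = 0.000557), a call lost with limma-voom (adjusted p = 0.0549). Among the other genes not called were F8, F3, PLAT, THBD and TFPI, which are known from endothelium or other cells more than from hepatocytes. F8, coagulation factor VIII, lay between 49.8 and 81.4 CPM (median 64.9) in liver and between 145 and 436 CPM (median 213) in ileum, without overlap and with a log2 difference of -1.99 ± 0.157 (adjusted p = 8.29e-13). THBD, the thrombin receptor of endothelium, lay between 9.11 and 14.4 CPM (median 13.1) in liver and between 76.3 and 191 CPM (median 125) in lung, also lower in liver without overlap.

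Of 29 complement genes, 20 were high and 0 low (list medians 3.86 to 7.31). C3 lay between 32065 and 54560.1 CPM (median 35132) in liver and between 1341 and 2274 CPM (median 2047) in ileum. C8A, a subunit of the membrane attack complex, lay between 705 and 1199 CPM (median 951) in liver and at most 1.08 CPM in ileum. CFB, the protease of the alternative pathway, lay between 3693 and 6235 CPM (median 4421) in liver and between 82.1 and 193 CPM (median 129) in lung. Each of these 3 was higher in every liver than in any other library. C1QA, C1QB and C1QC, the chains of C1q that macrophages make, were lower in liver than in lung. C1QC lay between 373 and 911 CPM (median 518) in liver and between 1317 and 2374 CPM (median 1594) in lung, a log2 difference of -1.55 ± 0.243 (adjusted p = 1.17e-06). FCN2, a lectin that starts the lectin pathway, lay between 109 and 443 CPM (median 179) in liver, between 84.3 and 651 CPM (median 154) in ileum and between 117 and 482 CPM (median 192) in lung. Its ranges overlapped, and the differences of 0.02 ± 0.42 from ileum and -0.25 ± 0.421 from lung did not pass (adjusted p = 0.969 and 0.595). MBL1, a mannose-binding lectin whose human counterpart is inactive, lay between 139.9 and 376 CPM (median 325) in liver and at most 1.37 CPM elsewhere. MBL2, which opens the same pathway, lay between 15.4 and 373 CPM (median 62) in liver and was at 0 counts in all hearts and all lungs. Against a floor of 3 counts over the group, the mean of the livers was at least 4897-fold above heart and at least 14979.8-fold above lung. That mean was raised by the highest liver, and the fold does not hold for each liver.

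Acute phase genes, which hepatocytes raise in inflammation, gave 7 of 12 high (list medians 3.91 to 5.47). CRP, C-reactive protein, lay between 381 and 4205 CPM (median 1964) in liver and at most 2.86 CPM in ileum. HAMP, the iron hormone hepcidin, lay between 91.4 and 786 CPM (median 370.3) in liver and at most 10.2 CPM in ileum. LBP, which binds bacterial endotoxin, lay between 484 and 1398 CPM (median 861) in liver and between 5.45 and 128 CPM (median 13.7) in ileum. No other library reached the livers for these 3 genes, although the livers themselves were far apart for CRP and HAMP. LCN2, an iron-withholding protein of epithelia and neutrophils, lay between 4.88 and 11.2 CPM (median 8.16) in liver and between 41.4 and 147 CPM (median 78.4) in lung, lower in liver. STAT3, which carries the interleukin 6 signal, was higher in liver than in every other organ but not by 4-fold, with a smallest difference of 1.75 ± 0.146 (adjusted p = 2.89e-12).

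**Figure D2:**
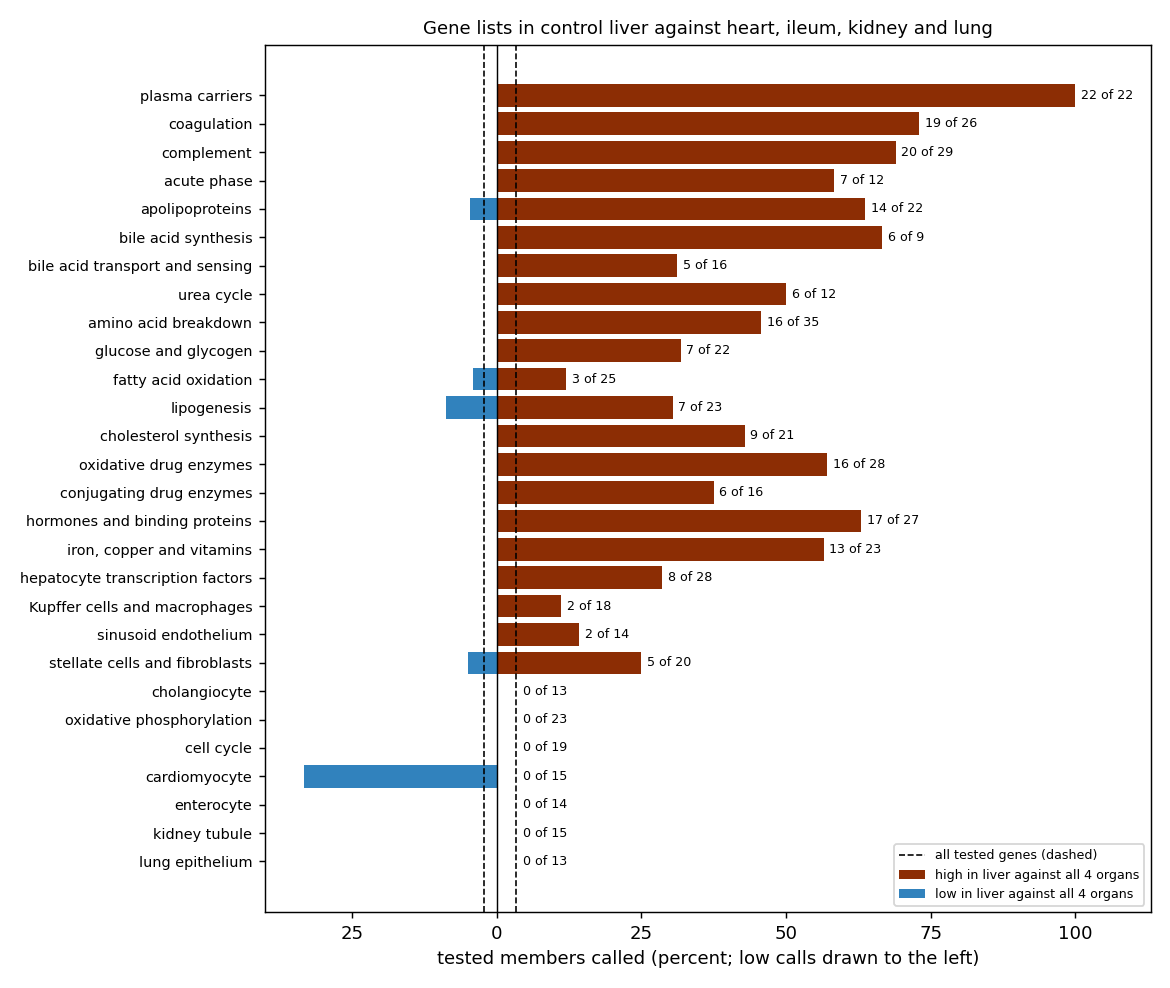
Share of the tested members of 28 gene lists called high (bars to the right) or low (bars to the left) in control liver against all 4 other organs, in percent, with the number high of the number tested beside each bar and dashed lines at the shares of all tested genes, 3.41% high and 2.14% low. The carriers of plasma stand at 22 of 22, and the heart muscle list holds the most low calls, 5 of 15.

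Among apolipoproteins and the genes around them, 14 of 22 were high, 1 was low and 7 were neither (list medians 5.24 to 10.39). APOA2, the second protein of high-density lipoprotein, lay between 772 and 1150 CPM (median 952) in liver and at most 1.01 CPM elsewhere. APOB, the backbone of very low-density lipoprotein, lay between 3938 and 8339 CPM (median 5946) in liver and between 96.9 and 877 CPM (median 523) in ileum, a log2 difference of 3.61 ± 0.685 (adjusted p = 2.46e-05). For APOA2 and APOB no library of another organ reached the livers. MTTP, which loads lipid onto APOB, lay between 265 and 549.7 CPM (median 383) in liver and between 73.7 and 407 CPM (median 173) in ileum, a log2 difference of 0.97 ± 0.39 (adjusted p = 0.028). That call was lost without animal 1, 10 or 15 (edgeR, adjusted p = 0.114, 0.0647 and 0.121, with 7 animals left each time). It was also lost without the animal term (adjusted p = 0.066), with RLE (0.0503) or upper-quartile scaling (0.0978), with no filter (0.0595), with DESeq2 (0.128) and with limma-voom (0.299). TM6SF2, which acts in the same assembly, lay between 45 and 77.5 CPM (median 57.7) in liver and between 23.8 and 82.7 CPM (median 34.5) in ileum (0.46 ± 0.235, adjusted p = 0.084). Both overlapped between the 2 organs. APOA4, an apolipoprotein best known from intestine, lay between 53.4 and 3834 CPM (median 214) in liver and between 32.8 and 915 CPM (median 54.7) in ileum, a wide and overlapping range in both (1.61 ± 0.561, adjusted p = 0.0119), a call lost without animal 1 or 4 (edgeR, adjusted p = 0.0613 and 0.0583), with DESeq2 (0.107) and with limma-voom (0.501). LPL, the lipase that takes fat up into muscle and fat tissue, was the low member: between 0.171 and 1.31 CPM (median 0.3) in liver, between 3.38 and 21.2 CPM (median 7.72) in lung, the next lowest organ, and between 685 and 1251 CPM (median 918) in heart.

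The path from cholesterol to bile acids gave 6 high of 9 tested genes (list medians 3.89 to 5.7). CYP27A1, which opens the acidic branch of the path, lay between 721 and 1010.4 CPM (median 948) in liver and between 63.1 and 129 CPM (median 93.3) in heart. AKR1D1, the 5-beta reductase of bile acid and steroid synthesis, lay between 829 and 1193 CPM (median 953) in liver and at most 1.89 CPM in kidney. SLC27A5, which activates bile acids for conjugation, lay between 758 and 1172 CPM (median 1030.1) in liver and at most 6.73 CPM in kidney. The livers lay above all other libraries for each of the 3. CYP7A1, the rate-limiting enzyme of the classic branch, did not follow: it lay between 20.1 and 135 CPM (median 61.3) in liver and between 35.2 and 148 CPM (median 77) in lung. Those 2 organs overlapped, and their log2 difference of -0.38 ± 0.363 did not pass (adjusted p = 0.352). CYP7A1 was at 0 counts in all hearts and at most 0.098 CPM in ileum and 0.0511 CPM in kidney. In the livers of animals 1, 4, 7, 10, 13, 14, 15 and 26, CYP7A1 stood at 30.5, 135, 20.1, 73.2, 96.3, 43.1, 106 and 49.3 CPM. In the lungs of the same animals it stood at 77.9, 86.4, 112, 54, 76.1, 148, 35.2 and 72.8 CPM. Each of the 8 lungs held it, while AKR1D1 reached 0.882 CPM, SLC27A5 0.569 CPM and ABCB11 0.332 CPM at most in a lung. In the RefSeq annotation of Sscrofa11.1, CYP7A1 spans 4:74343101-74372628 and SDCBP spans 4:74295941-74357720, so the genes overlap. Whether the counts used strand is not given in the sources used here, so reads of CYP7A1 and SDCBP may not be told apart. SDCBP, an adaptor protein found in most cells, lay between 122 and 183 CPM (median 150.3) in liver, between 56.7 and 124 CPM (median 81.3) in heart, between 100.3 and 131 CPM (median 105) in ileum, between 95.6 and 165 CPM (median 111) in kidney and between 213 and 261 CPM (median 226) in lung. Its log2 difference, liver minus lung, was -0.59 ± 0.095 (adjusted p = 1.65e-06), and it was present in the 3 organs where CYP7A1 was at or near 0. The part of reads shared by the 2 genes in the CYP7A1 counts was not tested.

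CYP8B1, the enzyme that directs the path to cholic acid, was under the limit for testing: it stood at 21.1 CPM in the liver of animal 13 and between 0 and 1.35 CPM in the 7 other livers. CYP4A21, known in pigs as the enzyme that makes hyocholic acid, lay between 197 and 1138 CPM (median 420) in liver and between 1.34 and 216 CPM (median 16.2) in kidney, with 1 kidney inside the range of the livers (5.11 ± 0.705, adjusted p = 5.59e-07). The gene listed as BAAT, which joins bile acids to glycine or taurine, was at 0 counts in all 8 livers, where 3 counts over the group would be 0.0159 CPM. Of 16 tested transporters and sensors of bile acids, 5 were high (list medians 1.7 to 8.83). SLC10A1, the uptake carrier of hepatocytes, lay between 146 and 806 CPM (median 234) in liver and at most 0.672 CPM in ileum. NR0B2, the repressor that bile acids induce, lay between 23.3 and 53.4 CPM (median 31.1) in liver and at most 1.22 CPM in kidney. NR1H4, the bile acid receptor FXR, lay between 103 and 125 CPM (median 117) in liver and between 49.5 and 286 CPM (median 114) in ileum, and the difference of -0.19 ± 0.27 did not pass (adjusted p = 0.547). SLC10A2, which takes bile acids up in ileum, lay between 0.0428 and 1.2 CPM (median 0.231) in liver and between 56.6 and 356 CPM (median 102) in ileum. SLC51A, part of the carrier that passes them on to blood, lay between 0.642 and 12 CPM (median 1.33) in liver and between 76.2 and 291 CPM (median 124) in ileum. Both ileal carriers were lower in every liver than in any ileum.

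**Figure D3:**
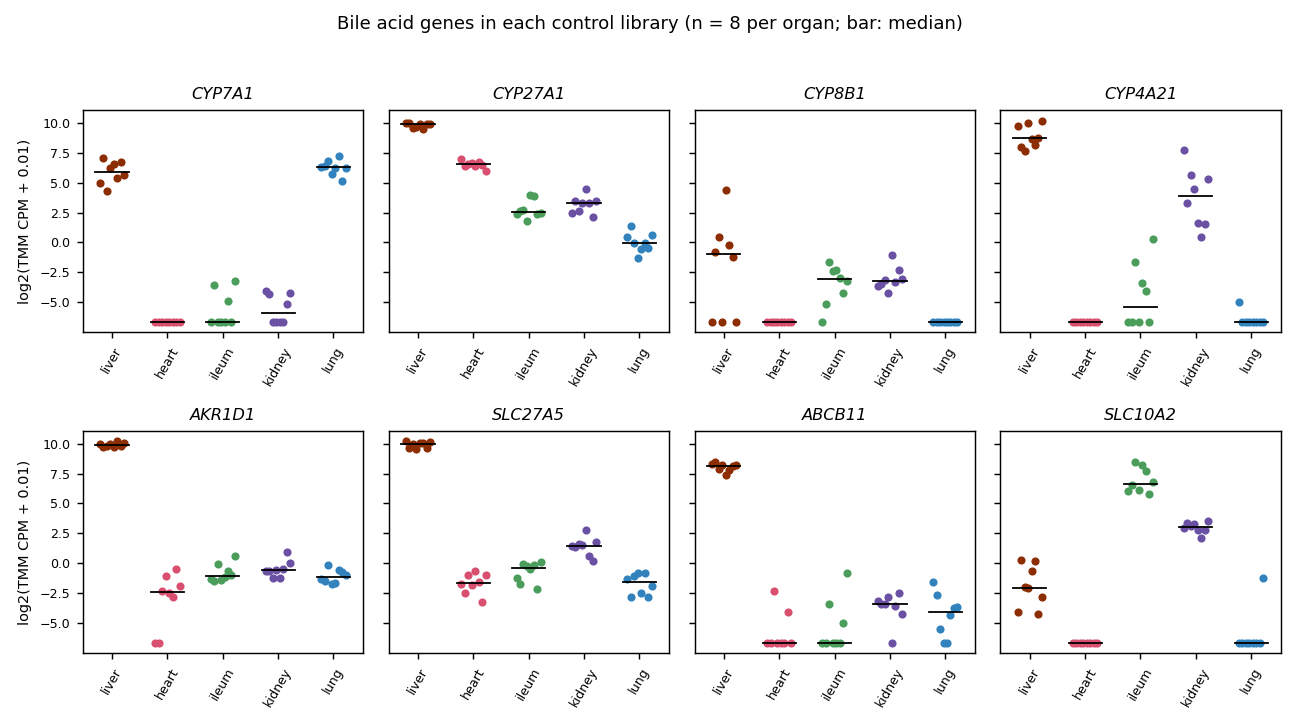
Level of 8 genes of bile acid synthesis and transport in each control library, as log2 of TMM-scaled CPM plus 0.01, with 8 points per organ and a bar at the median. CYP7A1 overlaps between liver and lung and is near 0 elsewhere, CYP8B1 is raised in 1 liver, and SLC10A2 is highest in ileum.

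Of 12 genes of the urea cycle and ammonia handling, 6 were high (list medians 3.28 to 8.43). CPS1, which fixes ammonia, lay between 995 and 6417 CPM (median 1459) in liver, between 131 and 655 CPM (median 335) in ileum and at most 0.728 CPM in lung. OTC, the next enzyme, lay between 298 and 419 CPM (median 374) in liver and between 26.9 and 93.9 CPM (median 47.7) in ileum. NAGS, whose product switches CPS1 on, lay between 93.1 and 252 CPM (median 152) in liver and between 5.96 and 24.8 CPM (median 12.4) in ileum. For these 3 genes of the first steps, ileum was the organ next to liver and every liver lay above every ileum. DESeq2 did not call CPS1 high (adjusted p = 0.0815). ASS1, which joins citrulline and aspartate, lay between 625 and 2534 CPM (median 1218) in liver, between 377 and 1872 CPM (median 648) in ileum and between 319 and 1206 CPM (median 914) in kidney. These 3 organs overlapped, and the differences of 0.65 ± 0.309 from ileum (adjusted p = 0.0626) and 0.57 ± 0.307 from kidney (adjusted p = 0.0973) did not pass, while that from heart was 7.73 ± 0.409. ARG1, which splits off urea, lay between 98.5 and 3124 CPM (median 299) in liver and between 7.09 and 28.8 CPM (median 11.3) in lung. The liver of animal 4 was the highest, and the other 7 lay between 98.5 and 523 CPM.

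Breakdown of amino acids gave 16 of 35 high (list medians 1.85 to 7.73). Of the 35, 33 passed as higher in liver against heart, 34 against ileum, 30 against kidney and 34 against lung. Per contrast, 33.8 to 39.3% of all tested genes passed as higher in liver. TDO2, which opens the breakdown of tryptophan, lay between 383 and 1737 CPM (median 1004) in liver and at most 1.67 CPM in ileum. MAT1A, which makes S-adenosylmethionine, lay between 980.1 and 2074 CPM (median 1927) in liver and at most 4.23 CPM in ileum. No library of another organ overlapped with the livers for either gene. AGXT2, a mitochondrial aminotransferase, lay between 439.8 and 655 CPM (median 579) in liver and between 108 and 344 CPM (median 203) in kidney, and passed against kidney but not by 4-fold (1.63 ± 0.476, adjusted p = 0.00311), a call lost with limma-voom (adjusted p = 0.106). PRODH2, of hydroxyproline breakdown, lay between 91.9 and 233 CPM (median 142) in liver and between 61.1 and 191 CPM (median 149) in kidney, and the difference of 0.18 ± 0.291 did not pass (adjusted p = 0.587). GOT1, an aminotransferase of the malate shuttle, was lower in liver than in heart, with between 66.9 and 159 CPM (median 90.4) in liver and between 324 and 596 CPM (median 501) in heart.

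Of 22 genes of glucose and glycogen, 7 were high (list medians 1.99 to 5.84). Of the 22, 18 passed as higher in liver against heart, 20 against ileum, 16 against kidney and 22 against lung. Per contrast, 33.8 to 39.3% of all tested genes passed as higher in liver. GYS2, the glycogen synthase of liver, lay between 102 and 664 CPM (median 329) in liver and at most 0.714 CPM in lung. It was at 0 counts in all hearts, and against a floor of 3 counts over the 8 hearts the mean of the livers was at least 15986-fold higher. SLC2A2, the glucose carrier GLUT2, lay between 231 and 604 CPM (median 289) in liver, between 5.21 and 33.6 CPM (median 16.5) in ileum and between 5.06 and 23.1 CPM (median 19.9) in kidney. GCGR, the glucagon receptor, lay between 350.2 and 495 CPM (median 421) in liver and between 17.6 and 76.4 CPM (median 34.6) in lung. For these 3 genes no other organ overlapped with liver. The enzymes of glucose output overlapped with kidney. PCK1, which starts gluconeogenesis, lay between 767 and 12447 CPM (median 2659) in liver and between 1395 and 6161 CPM (median 2046) in kidney (0.17 ± 0.527, adjusted p = 0.788). G6PC1, which releases free glucose, lay between 152 and 1965 CPM (median 410.3) in liver and between 29.1 and 396 CPM (median 229) in kidney (1.34 ± 0.427, adjusted p = 0.00725). FBP1, the step between them, lay between 281 and 1255 CPM (median 497) in liver and between 184 and 585 CPM (median 419) in kidney (0.62 ± 0.322, adjusted p = 0.0848). Of the 3, G6PC1 passed against kidney, and it did not without animal 7 (edgeR, adjusted p = 0.0556) or with limma-voom (adjusted p = 0.366).

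Several enzymes have a form known from liver and a form known from other organs, and of 52 tested members of such sets 9 were high and 4 low (list medians -0.02 to 1.02). PKLR, the pyruvate kinase of liver, lay between 60.9 and 164 CPM (median 94) in liver and between 3.44 and 12.4 CPM (median 9.22) in kidney (3.68 ± 0.315, adjusted p = 6.63e-12). PKM, the form of muscle and most other cells, lay between 51.7 and 94.8 CPM (median 60) in liver and between 202 and 353 CPM (median 242) in lung, the next lowest organ (-1.93 ± 0.187, adjusted p = 7.72e-11). The livers were thus above all other libraries for PKLR and below all others for PKM. PYGL, the glycogen phosphorylase of liver, lay between 353 and 569 CPM (median 462) in liver and between 107 and 162 CPM (median 142) in lung, higher in liver but not by 4-fold (1.67 ± 0.119, adjusted p = 5e-14). PYGB, the brain form, lay between 4.37 and 7.02 CPM (median 5.06) in liver and between 23.6 and 30.9 CPM (median 27.1) in lung, and was called low (-2.33 ± 0.152). FABP1, the fatty acid-binding protein of liver, was called high but overlapped with ileum, between 175 and 678 CPM (median 304) in liver and between 39.7 and 239.9 CPM (median 64.1) in ileum (2.01 ± 0.422). It sat at the 4-fold limit, and its smallest log2 difference was 1.58, 1.71, 2, 1.96 and 1.92 without animals 1, 10, 14, 15 and 26, which ended the call each time. The call also ended without the animal term (1.91), with RLE (1.9) or upper-quartile scaling (1.75), with no filter (1.99), with DESeq2 (1.97) and with limma-voom (adjusted p = 0.108). FABP3, the heart form, was called low but overlapped with ileum as well, between 4.77 and 20.2 CPM (median 6.51) in liver and between 13.8 and 68.8 CPM (median 46.9) in ileum (-2.48 ± 0.323). FABP5, the form of skin, was called low without overlap with any organ, between 3.37 and 13.7 CPM (median 6.61) in liver and between 24 and 67.5 CPM (median 36.7) in kidney (-2.5 ± 0.252). GLS2, the glutaminase of liver, lay between 27.6 and 182 CPM (median 52.8) in liver and between 0.514 and 7.25 CPM (median 0.9) in kidney. Every liver lay above every kidney for this gene.

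OXCT1, an enzyme that uses ketone bodies, lay between 2.92 and 6.17 CPM (median 4.82) in liver, between 19.8 and 37.3 CPM (median 26.3) in lung and between 559.9 and 934 CPM (median 641) in heart, and was called low (-2.54 ± 0.193, adjusted p = 2.74e-13). Every liver was below all other libraries for OXCT1. Of 25 genes of fatty acid oxidation and ketone bodies, 3 were high and 1 low (list medians 0.87 to 2.44), while against heart 13 passed as higher and 9 as lower in liver, against ileum 22 and 2, against kidney 20 and 2, and against lung 23 and 2. Of all tested genes, 39.3% were higher and 32.5% lower in liver against heart, and 33.8 and 36.2% against ileum. Against kidney these shares were 36.0 and 34.4%, and against lung 35.1 and 38.9%. HADHA, of the trifunctional protein, lay between 287 and 784 CPM (median 376) in liver and between 947 and 1711 CPM (median 1315) in heart. CPT1B, the muscle form of the carnitine step, lay between 1.97 and 5.59 CPM (median 3.63) in liver and between 485 and 755 CPM (median 568) in heart. CPT1A, the liver form, lay between 82 and 400.2 CPM (median 169) in liver and between 108 and 271 CPM (median 189) in kidney, and did not pass against kidney (adjusted p = 1). Nuclear genes of oxidative phosphorylation gave 0 high and 0 low calls of 23 (list medians -1.75 to 1.64), while against heart 1 passed as higher and 21 as lower in liver, against ileum 20 and 0, against kidney 8 and 2, and against lung 23 and 0.

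**Figure D4:**
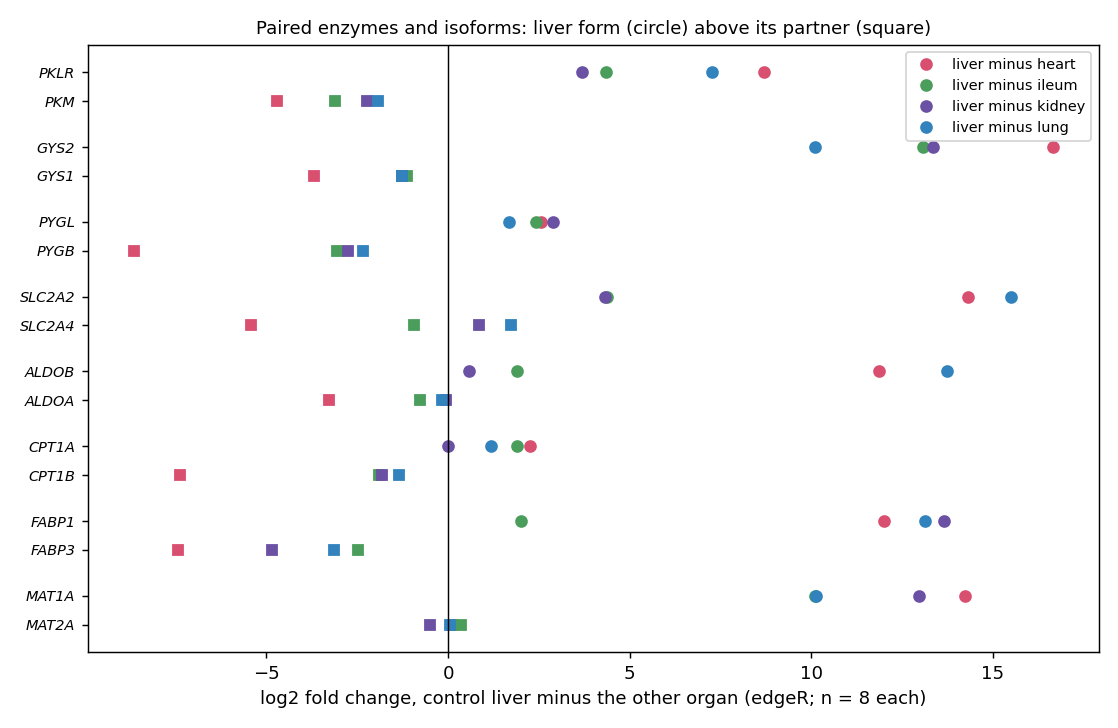
Log2 fold change of control liver minus each other organ (colour) for 8 pairs of enzymes or isoforms, the form known from liver as a circle above its partner as a square, with 8 libraries per organ. PKLR, GYS2, SLC2A2 and MAT1A lie at least 3 above 0 in every contrast, and PYGB and FABP3 lie at least 2 below 0 in every contrast.

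Of 21 genes of cholesterol synthesis, 9 were called high (list medians 2.04 to 3.82). Of the 21, 21 passed as higher in liver against heart, 20 against ileum, 21 against kidney and 21 against lung. Per contrast, 33.8 to 39.3% of all tested genes passed as higher in liver. IDI1, of its isoprenoid steps, was called high, with between 57.6 and 1041 CPM (median 244) in liver and between 46.5 and 95.9 CPM (median 62.3) in ileum (2.04 ± 0.282, adjusted p = 1.38e-07). CYP51A1, of its later steps, was higher in liver than in ileum but not by 4-fold, with between 53.1 and 609 CPM (median 227) in liver and between 70.3 and 143 CPM (median 98.3) in ileum (1.23 ± 0.246, adjusted p = 5.11e-05). Both overlapped with ileum, and IDI1 sat at the 4-fold limit, with a smallest log2 difference of 1.76 without animal 1 and 1.76 without animal 10, 1.92 with RLE, 1.76 with upper-quartile scaling, 1.92 with DESeq2 and 1.81 with limma-voom, each of which ended the call. In lipogenesis 7 of 23 were high and 2 low (list medians 1.67 to 2.95). FADS2, a desaturase of long fatty acids, lay between 349 and 1239 CPM (median 523) in liver and between 31.1 and 61.9 CPM (median 42.1) in ileum, without overlap. FASN, fatty acid synthase, lay between 160.3 and 599 CPM (median 389.9) in liver and between 228 and 605 CPM (median 369.7) in lung, and the difference of 0.045 ± 0.192 did not pass (adjusted p = 0.839). ACACB, the acetyl-CoA carboxylase of mitochondria, was called low, with between 1.41 and 2.98 CPM (median 2.22) in liver, between 7.05 and 11.2 CPM (median 9.79) in lung and between 261 and 491 CPM (median 322) in heart. PPARG, the regulator of fat cells, was the other low member, with between 0.0721 and 0.798 CPM (median 0.392) in liver and between 0.546 and 7.03 CPM (median 1.9) in ileum. Both low members overlapped with ileum, and ACACB no longer reached the 4-fold limit without animal 7, 13 or 14 (-1.72, -1.73 and -1.69) or with limma-voom (-1.57).

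Of the enzymes of drug metabolism, 16 of 28 oxidative enzymes (list medians 3.63 to 7.92) and 6 of 16 conjugating enzymes (list medians 2.21 to 4.32) were high. CYP2C49 lay between 4564 and 9779.5 CPM (median 7971) in liver and between 0.784 and 190.2 CPM (median 59.2) in kidney. CYP2E1, of ethanol oxidation, lay between 1075 and 3334 CPM (median 1754) in liver and at most 14.2 CPM in heart. CYP1A2, of caffeine oxidation, lay between 368 and 1399 CPM (median 637) in liver and at most 0.975 CPM in kidney. No other organ overlapped with liver for these 3. Cytochrome P450 genes form families of similar copies, and how reads were shared among copies is not given in the sources used here, so their single values are uncertain. SULT2A1, which sulphates steroids and bile acids, lay between 376 and 2437 CPM (median 705) in liver and at most 0.287 CPM in ileum (13.29 ± 0.609). NNMT, which methylates nicotinamide, lay between 242 and 2062 CPM (median 728) in liver and at most 1.39 CPM in ileum (12.38 ± 0.8). FMO1, a monooxygenase, passed against lung but not by 4-fold, with between 211 and 888 CPM (median 426) in liver and between 110.3 and 436 CPM (median 283) in lung (1 ± 0.403, adjusted p = 0.0261), a call lost without animal 15 or 26 (edgeR, adjusted p = 0.16 and 0.0532), without the animal term (0.0675), with upper-quartile scaling (0.117) and with no filter (0.0568). FMO5, of the same family, lay between 133 and 548 CPM (median 264) in liver and between 101 and 426 CPM (median 318) in kidney and did not pass (adjusted p = 0.872).

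Of 28 transcription factors and nuclear receptors known from hepatocytes, 8 were high (list medians 2.32 to 6.58). FOXA3, which opens chromatin at liver genes, lay between 120.4 and 248 CPM (median 140.3) in liver and between 1.43 and 3.61 CPM (median 1.9) in ileum. CREB3L3, which drives genes of fasting, lay between 449.6 and 889 CPM (median 648) in liver and between 4.77 and 98.4 CPM (median 21.4) in ileum. ONECUT1, a factor of liver development, lay between 12.2 and 25.7 CPM (median 20.4) in liver and at most 0.167 CPM in ileum. Each of the 3 separated the livers from every other library. HNF4A, a central regulator of hepatocytes, lay between 479.8 and 640.4 CPM (median 559) in liver, between 91.2 and 409 CPM (median 208) in ileum and between 95.6 and 399.8 CPM (median 257) in kidney. It was higher in every liver than in any other library and passed in all contrasts, by 1.22 ± 0.298 against kidney (adjusted p = 0.000587), a call lost with limma-voom (adjusted p = 0.184).

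Of 27 hormones, receptors and binding proteins of the liver, 17 were high (list medians 4.57 to 7.11). IGFBP1, a binding protein of insulin-like growth factors that rises in fasting, lay between 595 and 2342 CPM (median 1399) in liver and at most 1.02 CPM in ileum. AGT, the precursor of angiotensin, lay between 1288 and 3621 CPM (median 2223) in liver and between 186 and 369 CPM (median 257) in lung. THPO, the growth factor of platelets, lay between 61.7 and 111 CPM (median 79.1) in liver and between 2.9 and 4.95 CPM (median 3.7) in heart. All livers stood above all other libraries for these 3. IGF1, which liver is known to secrete under growth hormone, had between 0.109 and 7.2 CPM (median 1.3) in liver and between 1.42 and 5.28 CPM (median 2.68) in heart, and did not pass in any contrast (adjusted p from 0.092 to 0.431). IGFBP3, known from nonparenchymal cells of liver, lay between 106 and 199.8 CPM (median 173) in liver and between 196 and 389 CPM (median 287) in kidney (-0.84 ± 0.277, adjusted p = 0.00764). LECT2, a secreted factor of hepatocytes, lay between 325 and 699.8 CPM (median 604) in liver and at most 0.868 CPM in ileum. In the handling of iron, copper and vitamins, 13 of 23 were high (list medians 4.19 to 7.28). TFR2, an iron sensor, lay between 970 and 1846 CPM (median 1402) in liver and between 16.1 and 90 CPM (median 64.7) in kidney. RBP4, the carrier of vitamin A, lay between 3979.8 and 8148 CPM (median 5401) in liver and between 5.26 and 29 CPM (median 11.2) in lung. Neither overlapped with another organ. VDR, the vitamin D receptor, lay between 0.472 and 2.06 CPM (median 0.86) in liver, between 36.9 and 131 CPM (median 64.7) in ileum and between 39.8 and 161 CPM (median 125) in kidney, lower in liver than in both.

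Of 7 genes known for fetal liver, 2 were high and 1 low (list medians -0.8 to 1.97). GPC3, a surface proteoglycan, was high, with between 573 and 1117 CPM (median 739.9) in liver and between 87.6 and 154 CPM (median 128) in lung (2.68 ± 0.447). AFP, the albumin-like carrier of the fetus, was also called high, at between 0.808 and 7.24 CPM (median 2.2) in liver and at most 0.613 CPM in kidney. DLK1, a marker of immature liver cells, lay between 0.399 and 17.2 CPM (median 1.36) in liver and between 32.9 and 154 CPM (median 70.4) in kidney. The imprinted gene PLAGL1 was low, with between 1.59 and 3.13 CPM (median 2.23) in liver and between 10.5 and 14.7 CPM (median 12.3) in lung. Of 3 tested genes that are inactive in people, 2 were high, MBL1 and UOX (list medians 8.5 to 9.63). UOX, urate oxidase, lay between 63 and 217 CPM (median 91.3) in liver and at most 0.712 CPM in any other library. CMAH, which makes a sialic acid that people lack, lay between 6.04 and 12.1 CPM (median 8.64) in liver and between 32.2 and 120.2 CPM (median 61.8) in ileum, lower in liver (-2.95 ± 0.219). Hepatocytes differ along the blood flow, and 5 of 13 genes known from the inflow side (list medians 2.21 to 11.21) and 3 of 11 from the outflow side (list medians 1.49 to 6.12) were high.

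Lists of cells other than hepatocytes were counted the same way, and in bulk tissue fewer cells of a type and less RNA per cell cannot be told apart. Per contrast, 33.8 to 39.3% of all tested genes passed as higher and 32.5 to 38.9% as lower in liver. Of 18 macrophage genes, 2 were high (list medians -1.41 to 2.28), while against heart 15 passed as higher and 0 as lower in liver, against ileum 15 and 1, against kidney 14 and 0, and against lung 2 and 14. CLEC4F, a lectin of Kupffer cells in mice, lay between 31.1 and 110.2 CPM (median 57.7) in liver and at most 1.3 CPM in lung. SLC40A1, the iron exporter, which hepatocytes share, lay between 144 and 409.7 CPM (median 293) in liver and between 46.4 and 84.8 CPM (median 61.2) in heart. These were the 2 high members, and neither overlapped with another organ. The smallest log2 difference of SLC40A1 was 1.96 with upper-quartile scaling, which ended its call. MARCO, a scavenger receptor, lay between 16.1 and 88.4 CPM (median 35.7) in liver and between 672 and 1439 CPM (median 912) in lung, lower in liver. Of 14 genes of sinusoidal endothelium, 2 were high (list medians 0.24 to 2.12). CLEC4G, a lectin of these cells, lay between 86.8 and 238 CPM (median 158) in liver and between 0.169 and 42.7 CPM (median 11.5) in ileum. OIT3, the other high member, lay between 35.5 and 98.2 CPM (median 82.7) in liver and at most 1.85 CPM in kidney. Of 12 genes of other endothelium, 0 were high (list medians -2.09 to 1.07), while against heart 1 passed as higher and 8 as lower in liver, against ileum 7 and 1, against kidney 0 and 6, and against lung 0 and 12. Of 20 genes of stellate cells and fibroblasts, 5 were high and 1 low (list medians 0.19 to 0.93). RELN, the matrix protein reelin, lay between 38.3 and 65.8 CPM (median 51.4) in liver and between 3.31 and 9.05 CPM (median 6.68) in ileum. COLEC11, a collectin, lay between 126 and 155 CPM (median 137) in liver and between 2.77 and 9.82 CPM (median 5.61) in kidney. LUM, lumican of fibrous matrix, was the low member, with between 0.326 and 3.18 CPM (median 1.31) in liver and between 8.9 and 30.5 CPM (median 20.8) in lung. No gene of bile ducts was called (0 of 13, list medians -0.88 to 4.09), and KRT19, a keratin of ducts and gut, lay between 12.6 and 38.2 CPM (median 24.2) in liver and between 386 and 1417 CPM (median 760.3) in ileum.

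Blood and immune cells gave no high or low call. Of all tested genes, 39.3% passed as higher and 32.5% as lower against heart, and 33.8 and 36.2% against ileum. Against kidney these shares were 36.0 and 34.4%, and against lung 35.1 and 38.9%. Of 14 T and NK cell genes (list medians -1.48 to 1.55), against heart 13 passed as higher and 0 as lower in liver, against ileum 1 and 9, against kidney 13 and 0, and against lung 0 and 12. Of 11 B and plasma cell genes (list medians -4.35 to 2.95), against heart 11 passed as higher and 0 as lower in liver, against ileum 0 and 11, against kidney 9 and 1, and against lung 0 and 9. Of 6 neutrophil genes (list medians -2.8 to 1.88), against heart 5 passed as higher and 0 as lower in liver, against ileum 1 and 2, against kidney 5 and 0, and against lung 0 and 6. Of 9 red cell genes (list medians -0.39 to 3.47), against heart 6 passed as higher and 3 as lower in liver, against ileum 5 and 2, against kidney 4 and 1, and against lung 0 and 4. Of 8 smooth muscle genes (list medians -3.21 to -0.11), against heart 2 passed as higher and 3 as lower in liver, near the shares of all genes. The counts were 0 and 7 against ileum, 1 and 0 against kidney, and 0 and 6 against lung. Genes of the interferon response, with 1 high call of 21 (list medians 0.55 to 1.84), are taken up again with the single animals. Immediate early genes, which cells switch on within minutes of a stimulus, gave 2 high calls of 23 (list medians -0.37 to 1.29). EGR1, a transcription factor of this kind, lay between 296 and 768 CPM (median 468) in liver and between 45.2 and 137 CPM (median 53) in ileum, without overlap (2.94 ± 0.233, adjusted p = 1e-12). The summed level of these 23 genes was between 1381 and 2346 CPM in liver, between 645 and 922 in heart, between 759 and 1783 in ileum, between 409 and 756 in kidney and between 1023 and 1434 in lung, and the part of the time of harvest in it was not tested.

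Of the 12 genes named among the 392 low in liver, those with at least 10 CPM on average in each other organ and the most negative size, NCAM1 came first. NCAM1, a cell adhesion molecule, lay between 0.0898 and 0.636 CPM (median 0.241) in liver, between 206 and 356 CPM (median 280.2) in heart, between 2.89 and 23.1 CPM (median 6.63) in ileum, between 12.5 and 72.3 CPM (median 18.2) in kidney and between 9.57 and 29.4 CPM (median 21.4) in lung, with a size of -5.04 ± 0.507 against ileum (adjusted p = 2.35e-10). TACC2, a protein of the centrosome and spindle, lay between 1.45 and 2.51 CPM (median 2.26) in liver and between 13.9 and 96.9 CPM (median 29.3) in ileum. CA4, a membrane-bound carbonic anhydrase, lay between 0.653 and 1.8 CPM (median 1.31) in liver and between 7.3 and 46 CPM (median 15.4) in ileum. MME, the peptidase neprilysin, lay between 0.198 and 2.79 CPM (median 0.774) in liver and between 3.36 and 21.8 CPM (median 8.28) in lung. All livers lay below all other libraries for these 4 genes, which their choice by the most negative sizes favours. LUM, EMP1, PDZRN3, DPYSL3, COL15A1, CLIC5, FLNC and MPP7 complete the 12, with sizes between -3.9 and -3.02, and COL15A1 and FLNC overlapped with another organ. Of 15 heart muscle genes, 5 were called low, and 15 were lower in liver than in heart, 6 than in ileum, 10 than in kidney and 8 than in lung (list medians -15.06 to -0.86). CKM, the creatine kinase of muscle, lay between 0 and 0.757 CPM (median 0.0964) in liver, between 1.35 and 4.8 CPM (median 3) in lung and between 6437 and 11916 CPM (median 9669) in heart, and limma-voom did not call it low (adjusted p = 0.0735). Of 19 cell cycle genes, 0 were called low (list medians -2.87 to 1.05). Against heart 3 passed as higher and 2 as lower in liver, against ileum 0 and 19, against kidney 13 and 0, and against lung 0 and 15. Per contrast, 33.8 to 39.3% of all tested genes passed as higher and 32.5 to 38.9% as lower in liver.

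Genes shared with 1 other organ were counted as those past the limits for high in 3 contrasts and within 2-fold of the fourth organ. There were 112 shared with kidney (0.612% of tested genes), 49 with ileum (0.268%), 33 with heart (0.180%) and 30 with lung (0.164%). SLC16A12, a creatine carrier, lay between 48.1 and 222 CPM (median 99.5) in liver and between 64.7 and 172 CPM (median 116) in kidney (-0.1 ± 0.277). NR1I2, the drug sensor PXR, lay between 67.2 and 126 CPM (median 98.9) in liver and between 40.8 and 176 CPM (median 71.9) in ileum (0.12 ± 0.312). PROX1, a factor of hepatocytes and lymph vessels, lay between 26.8 and 90.1 CPM (median 46) in liver and between 33 and 54.6 CPM (median 41) in heart (0.19 ± 0.253). In each case the 2 organs overlapped and the other 3 lay lower, though NR1I2 did not pass against kidney with limma-voom (adjusted p = 0.054). BDH1, a ketone body enzyme, lay between 47.7 and 175 CPM (median 108) in liver and between 61.3 and 125 CPM (median 96) in heart (0.19 ± 0.203). HHIP, which binds hedgehog ligands, lay between 39 and 99.9 CPM (median 74.4) in liver and between 43 and 101 CPM (median 84) in lung (-0.14 ± 0.239). GPR182, a receptor of endothelium, lay between 18.6 and 54.8 CPM (median 38) in liver and between 19.9 and 33.5 CPM (median 31.4) in lung (0.23 ± 0.235). None of these 6 differences from the fourth organ passed (adjusted p from 0.374 to 0.756). These genes were picked for high levels against 3 organs and the smallest differences from the fourth. The overlap and the lack of a pass therefore follow from that choice.

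Livers of different animals were compared by their spread. Over the 9304 genes with a mean of at least 10 CPM in liver, the SD of log2 CPM among the 8 livers had a median of 0.279, and 211 genes exceeded 1. ANGPTL8, a regulator of lipoprotein lipase that feeding raises, was among the most variable genes, with 14.5, 0.762, 1.98, 146, 33.4, 3.16, 4.15 and 95.1 CPM in animals 1, 4, 7, 10, 13, 14, 15 and 26. It was lowest in animals 4 and 7 and highest in animals 10 and 26. PCK1, which fasting raises, stood at 1908, 12447, 6975, 767, 3411, 5471, 1799 and 1079 CPM in the same order. G6PC1, also raised by fasting, stood at 331, 1965, 1273, 197, 490, 586, 214 and 152 CPM. Feeding before anesthesia is not given in the sources used here, and its part was not tested.

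**Figure D5:**
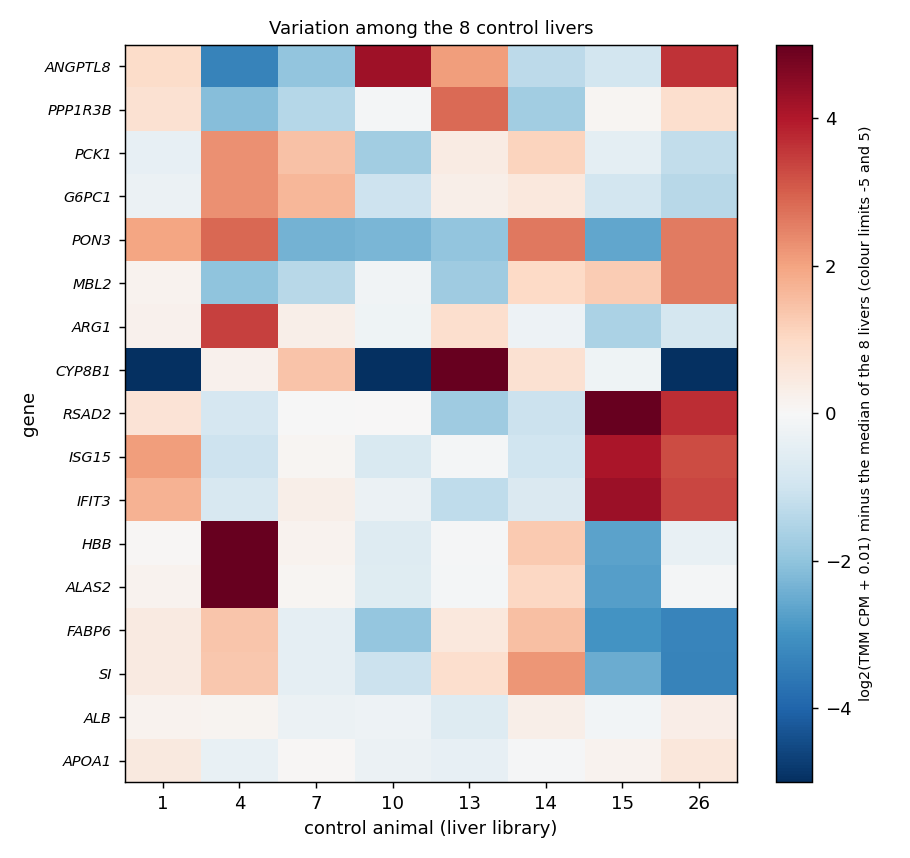
Levels of 17 genes in the 8 control livers, as log2 of TMM-scaled CPM plus 0.01 minus the median of the 8 livers, with 1 column per animal and colours limited to -5 and 5. ANGPTL8 is lowest in animals 4 and 7, PON3 splits the livers into 4 high and 4 low, RSAD2, ISG15 and IFIT3 are highest in animals 15 and 26, and HBB and ALAS2 are highest in animal 4, while ALB and APOA1 vary little.

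PON3, a lactonase of high-density lipoprotein, stood at 38.4, 70.7, 61.1 and 58.4 CPM in the livers of animals 1, 4, 14 and 26. It stood at 1.86, 1.97, 2.45 and 1.58 CPM in those of animals 7, 10, 13 and 15. No liver lay between 2.45 and 38.4 CPM, and each set held 2 females and 2 males. Kidney, the only other organ above 1 CPM, had 1.34 and 1.27 CPM in animals 4 and 26 and under 1 CPM in the rest. PON1, its neighbour on chromosome 9, stood at 512, 371, 356, 407, 218, 405, 358 and 538 CPM in the livers of animals 1, 4, 7, 10, 13, 14, 15 and 26, without such a gap.

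Genes of the interferon response, which cells raise against viruses, were highest in animals 15 and 26. The summed level of 21 such genes was 27123 CPM in the liver of animal 15, 16037 in that of 26, 8746 in that of 1 and between 2661 and 4459.6 in the 5 others. RSAD2, an antiviral enzyme, stood at 3556 and 1256 CPM in livers 15 and 26 and at most 157 in the others. Animal 15 also had the highest RSAD2 of 8 in heart (596 CPM), kidney (475 CPM) and lung (978 CPM), which leaves out ileum. The highest summed level of the 21 genes was 4958 CPM in ileum, 8149 in heart, 8585 in kidney and 13617 in lung. Red cell genes stood out in the liver of animal 4. HBB, the beta chain of haemoglobin, stood there at 8415 CPM and between 32.1 and 507 in the others, and ALAS2, the haem enzyme of red cell precursors, at 140.3 CPM against at most 6.11. The same liver held the highest ARG1 and the highest ASL, both of the urea cycle. Per the labels the veins of all organs were drained passively before storage, and the part of residual blood in these values was not tested.

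Genes known from the gut were also seen in livers. FABP6, the bile acid-binding protein of ileum, stood at 22.6, 42.4, 11.8, 4.22, 23.7, 46, 2.05 and 1.63 CPM in the livers of animals 1, 4, 7, 10, 13, 14, 15 and 26, where ileum had between 1700.2 and 5519 CPM (median 2712). SI, sucrase-isomaltase of the gut brush border, stood at 3.72, 6.82, 1.94, 1.26, 4.76, 12.4, 0.471 and 0.257 CPM in the same order, against between 391 and 2613 CPM (median 726) in ileum. Both were lowest in animals 15 and 26 and highest in 4 and 14. Both belong to a list of 14 tested gut genes, from which SI was picked after its values were seen. The summed level of the 14 genes did not order the livers that way: it stood at 197, 154, 184, 138, 222, 291, 202 and 178 CPM in the same order, highest in animal 14 and lowest in animals 10 and 4. FABP6 and SI made up the smaller part of that sum in each liver, so the sum need not follow them. In ileum that sum was between 4266 and 11036. The summed level of 15 kidney genes was 23.5 in the liver of animal 26, between 1.11 and 4.32 in the other livers, and between 9155 and 14202 in kidney. That of 15 heart muscle genes was between 10.8 and 18.6 in livers and between 158110.4 and 197776 in heart, and that of 13 lung genes between 83.5 and 199 in livers and between 6182 and 10818 in lung. No gene of these 4 lists was called high in liver: of the tested members, 13 of 14 gut genes were lower in liver than in ileum (list medians -6.22 to 9.01), 15 of 15 kidney genes lower than in kidney (list medians -11.31 to 2.13) and 13 of 13 lung genes lower than in lung (list medians -11.03 to 2.6). Of all tested genes, 36.2% were lower in liver against ileum, 34.4% against kidney and 38.9% against lung. The part of gut RNA in other liver values was not tested.

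Livers of 4 females and 4 males were compared by the same test over 14652 genes. No gene was higher in females (0%) and 10 were lower (0.0683%), with 420 genes higher and 522 lower at an unadjusted p under 0.05. DESeq2 called 25 genes higher and 57 lower in females, and limma-voom 0 and 12. Of the 10 genes, 7 carry no symbol in the files. EIF1AY lies on chromosome Y in the RefSeq annotation of Sscrofa11.1, and KDM5D is a gene of the Y chromosome in other mammals. KDM5D was at 0 counts in all 4 female livers and lay between 1.03 and 1.8 CPM in the male ones. The remaining gene was PPP1R1A, an inhibitor of protein phosphatase 1. Its levels were 48, 38.7, 37.9 and 37.9 CPM in female livers, against 113, 75.3, 97.7 and 99.8 CPM in male livers, without overlap. They averaged 40.6 ± 4.89 CPM in females and 96.4 ± 15.7 CPM in males (SD, n = 4 each), a log2 difference of -1.22 ± 0.157 (edgeR, adjusted p = 0.0289). Leaving out animal 1, 10, 13, 14, 15 or 26 ended this call (edgeR, adjusted p = 0.108, 0.13, 0.161, 0.146, 0.0997 and 0.12), with 8 animals in all.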

How the data were processed

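Expression was measured in 40 control libraries, 8 each of liver, heart, ileum, kidney and lung from the same 8 pigs, by sequencing poly(A) RNA. The deposited values are expected counts per Ensembl gene of Sscrofa11.1, and the authors used STAR, Salmon, cutadapt, Trim Galore, MultiQC and bcl2fastq, per the submitters' processing notes. Versions, the annotation release and the use of strand are not given in the sources used here. Samples were grouped by their labels, and the bypass animals were left out. Expected counts were rounded to whole numbers. In edgeR 4.0.16 (R 4.3.3), genes of low count were filtered by organ, libraries were scaled by TMM, and a robust quasi-likelihood model with organ and animal was fitted over 18305 genes, with liver minus each organ tested and p-values adjusted by Benjamini-Hochberg at 0.05. High or low needed 4-fold in all 4 contrasts. Standard errors are the log2 fold change divided by the square root of F. The female and male livers were compared in the same way without animal. The code was tested on simulated counts with known changes. For genes at 0 counts in a group, the mean of the livers was set against a floor of 3 counts over the group. That floor covers counting error only.

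Total counts per library ran from 21321288 to 53627711. The animal number in the labels pairs the organs, and the animal is in the fit. Deviations from the organ mean in liver and in another organ of the same animal correlated with medians of 0.141 to 0.187, against -0.0303 to -0.0134 for other animals, and the liver matched its own animal best for 7 of 8 animals in each organ. No 2 libraries of an organ agreed within sampling noise (lowest chi-square per degree of freedom 37.2). Each pig is 1 replicate.

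Genes were named by a rule: the 3 markers, the 15 high genes with a symbol, at least 10 CPM in liver and the largest size, the 15 largest shares of counts with a symbol, the 12 low genes with at least 10 CPM in each other organ, list members, the most variable livers, genes shared with 1 organ and sex differences. Of 156 genes named, 44 fall outside it and were chosen after their values were seen. The members and gene lists were chosen with earlier results of these data known. Alternatives were no animal term, RLE, upper-quartile and no scaling, no filter, DESeq2 1.42.0, limma-voom (limma 3.58.1), other fold limits, a test against 2-fold, leaving out the hearts, and leaving out each animal. Positions are those of RefSeq on Sscrofa11.1. A planned count of promoter motifs was not run, because no promoter sequences were used here. Some genes are not reported here.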

Additional observations from a re-analysis of the deposited data

Results flagged for a closer look

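Among 119 named genes with at least 10 CPM in liver, 7 had 1 control liver whose gap to the nearest other liver, on the log2 scale,, divided by the range of all 8, exceeded Dixon's critical value. Chance flags about 1 in 20 groups, and 7 of 119 is near that share. Some of these genes were named for their spread among these livers or after their values were seen, so that rate is only a rough guide. ALAS2 stood at 140.3 CPM in the liver of animal 4, next to 6.11 CPM in the nearest liver. ASL stood at 839.7 CPM in the same liver, next to 345 CPM. MBL1 was lowest there, at 139.9 CPM, next to 282 CPM. FOXA3 was highest in animal 13, at 248 CPM, next to 169 CPM. SLC40A1 was lowest in animal 13, at 144 CPM, next to 272 CPM, and PON1 was lowest there, at 218 CPM, next to 356 CPM. HAMP was lowest in animal 14, at 91.4 CPM, next to 302 CPM.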

How the results depend on the processing

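The counts of high and low genes stayed within 1.5 times of 624 and 392 with no animal block (628 and 405), RLE, upper-quartile scaling, no filter, DESeq2, limma-voom and a test against 2-fold. Without the animal block, the pairing of organs, 6933 genes were higher in liver than in heart. Leaving out 1 animal gave 606 to 642 high and 365 to 423 low genes. The genes higher and lower in liver then numbered 6957 to 7139 and 5604 to 5861 against heart, 5381 to 6200 and 6364 to 7025 against ileum, 6164 to 6537 and 5947 to 6222 against kidney, and 6082 to 6336 and 6806 to 7042 against lung. Between the sexes, 0 to 0 genes were then higher and 7 to 9 lower in females. With 2-fold limits 1318 genes were high and 1063 low, and with 8-fold limits 409 and 162, since the limit itself moved. Without the hearts, which removes a contrast, 797 were low. DESeq2 called 25 genes higher and 57 lower in female livers, and the cause was not tested. With library sizes alone, chosen after seeing the data, 374 genes were high and 1256 low, and higher and lower genes numbered 2014 and 13471 against ileum, 1605 and 13573 against kidney, and 2054 and 13788 against lung.

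That setting moves the median gene to as low as -1.44, and it alone turned the direction of 18 named differences that had passed. Against ileum these were C1QA (-0.3), C1QB (-0.4), C1QC (-0.41), COX1 (-0.63), COX3 (-0.42), FASN (-0.1), IFIT3 (-0.27) and MTTP (-0.24). Against kidney they were GOT1 (-0.72), HADHA (-0.51), HNF4A (-0.015) and SDCBP (-0.84). Against lung they were CPT1A (-0.14), EIF1AY (-0.44), FMO1 (-0.34), FMO5 (-0.47), ISG15 (-0.26) and TFPI (-0.13). For each named gene one difference was followed: the smallest of 4 if called, otherwise the smallest that passed. This choice was made after seeing the data. Of 2307 such values, 2178 kept direction and side of the threshold, and 111 kept direction but lost the call. Calls lost in the other settings are given beside the gene where a sentence rests on them. Those lost with library sizes alone are not given there. High calls lost that way, with the smallest log2 difference, were AFP (1.89), AGT (1.71), CPS1 (1.21), EGR1 (1.72), FABP1 (0.8) and GPC3 (1.33). IDI1 (0.81), OTC (1.73), PON1 (1.97), RELN (1.8) and SLC40A1 (1.46) lost theirs too. AGXT2, G6PC1 and KNG1 then did not pass against kidney, nor did APOA4 and CYP51A1 against ileum. Another 46 differences of named genes had not passed, and their signs were not taken as directions: 29 changed sign with library sizes alone, 11 with upper-quartile scaling and 2 to 7 under each other alternative. Levels under 1 CPM rest on few counts.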
